A study of Mus musculus with 12 samples.

Results

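The regions described here are stretches of chromatin marked by acetylation of histone H4 at lysine 12 (H4K12ac) that lie deep inside genes and that were found in most, but not all, of the mice examined. Overlapping autosomal peaks from 10 H4K12ac peak lists were merged, and regions were chosen by their presence in 7, 8 or 9 lists, by lying wholly inside a protein-coding gene of at most 500 kb, and by lying more than 10 kb from the annotated transcription start site (TSS) of every gene. Of 256014 merged regions, 25579 were in 7 to 9 lists and 8991 met the whole rule (member regions), of which 3026 were in 7 lists, 2866 in 8 lists and 3099 in 9 lists. The lists came from chromatin immunoprecipitation and sequencing of neuronal nuclei sorted from the whole hippocampus, 1 library per mouse, from 5 Tip60 cKO mice and 5 control mice. The labels give all mice as adult males of 3 months on C57BL/6J, whereas the methods of the study name another C57BL/6 substrain and both sexes. All mice carried Tip60 alleles flanked by loxP sites and received tamoxifen. The Tip60 cKO mice additionally carried a tamoxifen-inducible Cre recombinase under the Camk2a promoter, which is active in forebrain excitatory neurons, so that nuclei of other neurons in the sort keep the gene, and the nuclei were collected 10 days after tamoxifen. Control mice were littermates that lacked the Cre. Input chromatin had been pooled per genotype, and each list was called against the pooled input of its own genotype.

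TIP60, also called KAT5, is the catalytic subunit of a histone acetyltransferase complex that acetylates histones H4 and H2A. H4K12ac is found at active promoters and at distal regulatory regions, and it has been studied in the hippocampus in connection with learning and ageing. Introns of long neuronal genes hold many enhancers, which bind transcription factors of the AP-1, MEF2 and E-box binding families and act on their own or on other genes.

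For a view of the DNA in question, the following sequences are the 300 bases around the summit of the strongest peak, read on the plus strand of GRCm38 (mm10) from RefSeq, for 8 regions. They are the first 8 with a searched motif among the regions named further on for their rank scores, in the order in which they were picked, and other named regions, such as those in Rapgef4, Ncor1 and Dock9, also hold one. The motif letters are in capitals. Those in Fam189a1 (chr7:65077228-65077527) and Pebp4 (chr14:69970825-69971124) belong to regions with lower rank scores in Tip60 cKO mice, and those in Shank2 (chr7:144241374-144241673), Ralgps2 (chr1:156921914-156922213) and Ksr2 (chr5:117563735-117564034) to regions with higher ones. Those in Tex2 (chr11:106515093-106515392) and Aldh3a2 (chr11:61226144-61226443) are among the most strongly enriched member regions, and that in Gabbr2 (chr4:46706440-46706739) is the strongest one in a GABA receptor gene. All 8 windows lie in introns.
Fam189a1: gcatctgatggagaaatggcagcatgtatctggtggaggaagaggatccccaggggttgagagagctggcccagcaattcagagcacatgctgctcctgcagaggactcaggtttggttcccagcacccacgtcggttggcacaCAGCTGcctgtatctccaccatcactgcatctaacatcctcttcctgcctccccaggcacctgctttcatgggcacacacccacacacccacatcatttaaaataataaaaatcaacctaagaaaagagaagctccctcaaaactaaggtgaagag
Pebp4: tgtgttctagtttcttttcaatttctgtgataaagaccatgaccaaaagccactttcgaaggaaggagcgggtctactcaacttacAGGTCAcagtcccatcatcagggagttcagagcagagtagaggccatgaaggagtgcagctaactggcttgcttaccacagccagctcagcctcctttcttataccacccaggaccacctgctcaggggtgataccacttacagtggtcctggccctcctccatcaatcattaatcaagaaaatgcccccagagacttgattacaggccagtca
Shank2: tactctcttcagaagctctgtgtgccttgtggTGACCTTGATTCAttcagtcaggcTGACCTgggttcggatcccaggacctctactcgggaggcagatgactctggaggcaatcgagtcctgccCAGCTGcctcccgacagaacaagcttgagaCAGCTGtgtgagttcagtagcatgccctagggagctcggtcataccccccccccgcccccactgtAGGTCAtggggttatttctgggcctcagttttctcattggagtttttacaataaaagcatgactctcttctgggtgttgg
Ralgps2: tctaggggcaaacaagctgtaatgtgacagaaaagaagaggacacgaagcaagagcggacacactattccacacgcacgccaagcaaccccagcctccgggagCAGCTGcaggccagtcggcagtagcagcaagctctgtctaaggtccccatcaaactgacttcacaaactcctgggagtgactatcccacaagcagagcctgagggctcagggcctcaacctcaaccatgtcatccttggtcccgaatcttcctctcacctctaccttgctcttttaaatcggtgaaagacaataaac
Ksr2: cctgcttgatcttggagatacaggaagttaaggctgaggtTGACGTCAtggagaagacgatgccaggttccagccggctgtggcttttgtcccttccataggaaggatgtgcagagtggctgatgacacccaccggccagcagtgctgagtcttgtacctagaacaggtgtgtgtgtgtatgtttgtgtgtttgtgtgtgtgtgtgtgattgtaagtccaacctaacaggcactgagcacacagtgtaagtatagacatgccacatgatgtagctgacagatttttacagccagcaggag
Tex2: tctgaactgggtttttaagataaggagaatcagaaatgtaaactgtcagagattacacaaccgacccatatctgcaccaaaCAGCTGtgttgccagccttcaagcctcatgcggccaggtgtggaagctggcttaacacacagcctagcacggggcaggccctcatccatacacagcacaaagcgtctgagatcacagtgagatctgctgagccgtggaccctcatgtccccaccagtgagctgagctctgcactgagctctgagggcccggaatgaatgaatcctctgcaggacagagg
Aldh3a2: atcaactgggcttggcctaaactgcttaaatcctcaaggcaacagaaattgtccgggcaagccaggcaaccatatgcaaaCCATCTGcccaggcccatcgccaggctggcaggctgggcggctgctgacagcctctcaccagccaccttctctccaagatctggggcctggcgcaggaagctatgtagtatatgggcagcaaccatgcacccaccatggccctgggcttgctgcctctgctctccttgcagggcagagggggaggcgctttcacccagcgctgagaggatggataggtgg
Gabbr2: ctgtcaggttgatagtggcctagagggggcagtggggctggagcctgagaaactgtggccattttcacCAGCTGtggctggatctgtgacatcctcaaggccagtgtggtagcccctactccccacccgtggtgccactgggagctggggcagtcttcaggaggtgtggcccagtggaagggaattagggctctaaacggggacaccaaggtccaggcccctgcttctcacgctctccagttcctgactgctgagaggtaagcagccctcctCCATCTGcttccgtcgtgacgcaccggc
The Shank2 window held the most matches, with CAGCTG at 2 places, AGGTCA or its complement at 3 places and TGANTCA once, the last directly beside an AGGTCA match. Ksr2 held the only TGACGTCA in these 8 windows.

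Across all 8991 member regions, the 300 bases around the summit had a median GC content of 52.3%, with quartiles of 49.3% and 55.7%. Windows 5 kb to either side of the same summits had a median of 46.7%, all 143941 regions in at least 2 lists 51.7%, and regions at most 2 kb from a TSS 57.7%. CpG dinucleotides were few, with a median of 4 per window against 11 near a TSS, and 7.99% of the member windows held 10 or more, against 52.8% near a TSS. Member windows were therefore placed between flanking gene sequence and promoters in base composition. Repeats, soft-masked in the reference, filled more than 50% of the window in 3.08% of member regions and in 13.5% of the flanking windows.

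The motifs were searched on both strands and counted per window. CAGCTG, an E-box, occurred in 25.7% of member windows, in 22.8% of all regions and in 15.4% of the flanking windows. CAGATGG, the E-box form preferred by NeuroD factors, occurred in 9.59%, 8.40% and 7.82%. TGANTCA, searched for AP-1, was at 8.75%, 8.18% and 8.62%, and AGGTCA, the core repeat of nuclear receptor sites, at 19.5%, 18.9% and 19.2%. The MEF2 motif was found in 3.44% of member windows, 3.78% of all regions and 4.52% of the flanks. TGACGTCA, the site of CREB, was present in 28 member windows (0.311%, against 0.309% of all regions), GCGTGGGCG of EGR factors in 5, the NFI motif in 3 and the CTCF core in 2. Both E-box forms were thus more frequent at member summits than beside them, whereas TGANTCA and AGGTCA matches were about as frequent in the flanks. GC content differed between these windows as given above, its part in the motif counts was not tested, and a match is a stretch of letters, not a bound site.

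Sequencing depth after removal of duplicates was 22864189 to 37923809 tags per library, and the lists held 64012 to 135680 autosomal peaks. The library of Tip60 cKO mouse 5 was the shallowest and had the shortest list. Replicates 1 to 3 of both genotypes were sequenced in lane 7 and replicates 4 and 5 in lane 8. The labelled cell type was checked at the TSS of marker genes. All 4 neuronal markers and 6 of 7 markers of excitatory hippocampal neurons had a peak within 2 kb of the TSS in 10 lists. This was so for 0 of 7 interneuron, 0 of 5 astrocyte, 1 of 5 oligodendrocyte, 0 of 3 oligodendrocyte precursor (OPC), 0 of 5 microglial and 0 of 4 endothelial markers. The oligodendrocyte marker was Mbp, whose locus also encodes the golli transcripts found in neurons. Some glial markers came close, with a peak within 2 kb of the TSS of Gfap in 9 lists, as for the excitatory marker Wfs1, of Ugt8a in 8 and of Cspg4 in 7.

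Which mice lacked the peaks differed between libraries. In Tip60 cKO mice 1 to 5, 90.4%, 81.6%, 84.5%, 75.6% and 38.7% of the member regions held a peak, and in control mice 1 to 5 the shares were 90.3%, 90.9%, 86.1%, 69.6% and 93.1%. The group means were 74.2% ± 20.5 (SD, n = 5) and 86.0% ± 9.54 (SD, n = 5). The groups overlapped, and Tip60 cKO mouse 5 stood far below the other mice. Without this mouse the Tip60 cKO mean was 83.0% ± 6.14 (SD, n = 4). Within lane 7 the means were 85.5% and 89.1%, and within lane 8 they were 57.2% and 81.3%. With an equal number of peaks per list, which left 4519 member regions, the means were 78.0% in Tip60 cKO and 81.3% in control mice. In intergenic regions in 7 to 9 lists, Tip60 cKO mouse 5 was again lowest, with 37.2%, and the other mice had 75.8% to 94.2%. Because the rule fixes the number of lists, these shares describe the members and are not tested.

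**Figure D1:**
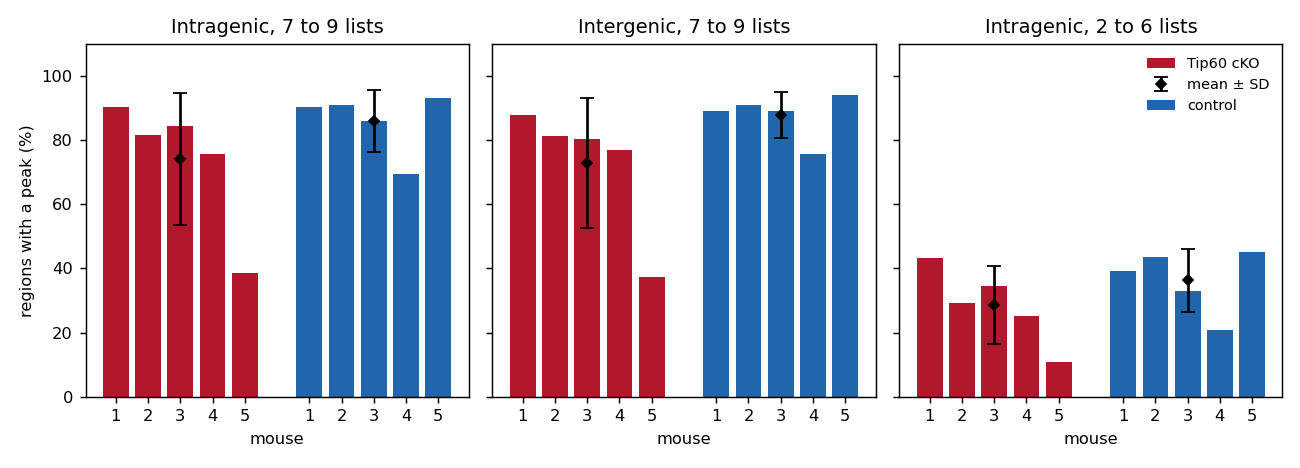
Share of regions with a peak in each mouse (bars, in percent), with the group mean and SD (diamond and whiskers), for member regions, intergenic regions in 7 to 9 lists and intragenic regions in 2 to 6 lists. Tip60 cKO mouse 5 is lowest in all 3 panels, with 38.7% of member regions against 69.6% to 93.1% in the control mice.

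By genotype, 5489 member regions (61.0%) had a peak in more control than Tip60 cKO lists, 2150 (23.9%) in more Tip60 cKO lists, and 1352 (15.04%) in the same number. The most frequent pattern, with 2254 regions (25.1%), was 4 Tip60 cKO lists and all 5 control lists, and in 1551 regions Tip60 cKO mouse 5 was the only mouse without a peak. The extreme patterns were rarer, with 712 regions in 2 Tip60 cKO and 5 control lists and 176 in 5 Tip60 cKO and 2 control lists. The mean rank score is a measure of relative enrichment within each library. By this score, 5657 member regions (62.9%) were lower in Tip60 cKO mice with all mice included, against 56.9% of the regions in at least 2 lists. Among intergenic regions in 7 to 9 lists, 70.6% were lower. Without mouse 5, 4585 member regions (51.0%) were lower.

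**Figure D2:**
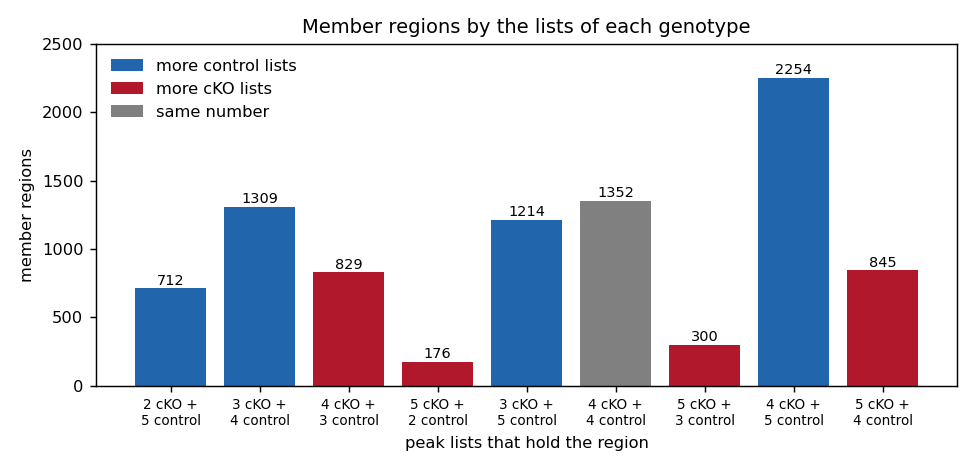
Number of member regions (vertical axis) for each combination of Tip60 cKO and control lists with a peak (horizontal axis), coloured by the genotype with more lists. The tallest bar, 2254 regions, is 4 Tip60 cKO plus 5 control lists, and the shortest, 176 regions, is 5 Tip60 cKO plus 2 control lists.

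Member regions were short, with a median length of 1001 bp and quartiles of 759 and 1334 bp, and covered 9.88 Mb. Their median fold enrichment over input, as MACS2 gives it for each peak, was 3.62, against 4.47 for intragenic regions in 10 lists under the same position rule (n = 5489). To set libraries of different depth side by side, each region was given a rank score, which places its highest fold enrichment, as a percent rank, among the 143941 regions in at least 2 lists within the same library and is 0 without a peak. The mean rank score over the 10 libraries had a median of 55.7 in member regions. Around the thresholds of the rule, the median rank score was 39.2 in intragenic regions in 6 lists (n = 3594) and 47.1 in 7 lists, and 66.2 in 9 lists and 83.1 in 10 lists. Median length rose along the same series, from 744 bp in 6 lists and 847 bp in 7 lists to 1236 bp in 9 lists and 1826 bp in 10 lists. Both series are tied to the rule. Each list without a peak adds a 0 to the mean score, and merging peaks of more lists can lengthen a region. A distance limit of 5 kb instead of 10 kb gave 10946 regions, and 20 kb gave 6311.

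Most member regions were intronic. Of the 8991, 6654 (74.0%) lay wholly in introns of the host gene, 1876 (20.9%) touched coding sequence and 901 (10.02%) touched an untranslated region, and a region can touch both. The intronic share was 62.0% in intragenic regions in 10 lists and 81.1% in 2 to 6 lists, so that it fell as the number of lists grew. The centre of member regions lay at a median of 68.1 kb downstream of the host gene's TSS, and the nearest TSS of any gene was 30.1 kb away. They were not gathered near the 5′ end, with 13.7% in the first 25% of the gene and 29.96% in the last 25%, a distribution that the 10 kb rule itself shapes. The rule counts the annotated 5′ end of each gene, and 3415 member regions (38.0%) lay at most 10 kb from the start of some annotated transcript. Of the 5576 that did not, 85.1% were wholly in introns. Member regions were often close to each other, with another member within 5 kb in 51.9% and a region in 10 lists within 5 kb in 41.1%.

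Of 11369 autosomal protein-coding genes of at most 500 kb with room for a member region, 2691 (23.7%) hosted at least 1. Of these, 1144 hosted exactly 1 and 186 hosted 10 or more, and those 186 genes held 3022 member regions (33.6%). The largest number, 55, lay in Tcf4, which encodes an E-box binding transcription factor of neuronal development. Myt1l, a zinc finger factor that maintains neuronal identity, hosted 52, and Gabbr2, a subunit of the metabotropic GABA receptor, hosted 49. Msra, a methionine sulfoxide reductase, followed with 48, Rbfox3, the splicing factor known as the neuronal marker NeuN, with 41, and Nedd4l, a ubiquitin ligase, with 40. Grik4, a kainate receptor subunit of hippocampal neurons, hosted 37 and Snd1 hosted 35. Long genes lead this order, and per 100 kb of eligible sequence Tcf4 held 17.4 member regions, Gabbr2 15.3, Grik4 9.64 and Snd1 9.08, against 1.73 over all eligible sequence. Some shorter genes were denser, for example 27.9 per 100 kb in Kcnc1, a fast potassium channel, and 24.7 in Camk2a, the calcium/calmodulin-dependent kinase of excitatory synapses, whose promoter also drives the Cre transgene. Among chromosomes, the density over eligible sequence ran from 12.5 per Mb on chromosome 3 to 23.0 on chromosome 11.

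Host genes more often had a peak near the start site. A peak lay within 2 kb of the TSS (TSS peak) in 10 lists in 1985 of the 2691 host genes (73.8%). The share was 47.1% in the 8678 eligible genes without a member region. The difference was present at every gene length examined. Among genes of up to 50 kb, 17.6% of those with a TSS peak in 10 lists hosted a member region, and 3.63% of those with a TSS peak in no list. Among genes of 200 to 500 kb the shares were 75.3% and 36.4%. A further region in 10 lists was inside 52.9% of the host genes and inside 6.56% of the eligible genes without a member region. These shares were not split by gene length, and host genes were longer, with a median of 83.0 kb against 32.4 kb. Snd1, Dscaml1, Cacna1d, Cacna1a and Shank2 were among the exceptions. Each had 20 or more member regions and no peak within 2 kb of the annotated 5′ end of the gene in any list.

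The hosts were also counted by gene function. Among genes with room for a member region, 9 of 15 glutamate receptor genes, 8 of 13 GABA receptor genes, 18 of 24 potassium channel genes and 23 of 30 genes of calcium channels, stores and kinases hosted at least 1. The shares were 15 of 22 for cyclic AMP signalling, 10 of 16 for synaptic adhesion, 20 of 27 for postsynaptic scaffolds and presynaptic release, and 18 of 27 for transcription factors of forebrain excitatory neurons. These 8 shares ran from 60.0% to 76.7%, against 23.7% of all eligible genes, but the genes of these lists were longer, with list medians of 91.6 to 240 kb against 39.4 kb. Of all eligible genes, 31.1% of those of 50 to 100 kb, 47.5% of those of 100 to 200 kb and 63.1% of those of 200 to 500 kb hosted a member region, beside which the list shares can be set by their median lengths. Glutamate receptors (60.0%, median length 240 kb) and adhesion genes (62.5%, 234 kb) were near the share of their length class. GABA receptors (61.54%, 91.6 kb), scaffolds and release (74.1%, 107 kb), transcription factors (66.7%, 134 kb), cyclic AMP signalling (68.2%, 142 kb), potassium channels (75%, 195 kb) and calcium genes (76.7%, 204 kb) were above it. Per 100 kb of eligible sequence, the 8 lists held from 1.69 member regions (scaffolds and release) and 2.14 (adhesion) to 4.39 (glutamate receptors) and 5.80 (transcription factors), against 1.73 over all eligible sequence. The part of gene length in these shares was not tested.

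Within the glutamate receptors, Grik4 (37), Gria1 (34), Grin2b (29) and Grin2a (28) held most member regions. These encode a kainate receptor subunit, the AMPA receptor subunit GluA1 and the NMDA receptor subunits GluN2B and GluN2A. Among potassium channels the highest numbers were in Kcnj6 (20), which encodes a G protein-gated channel, and Kcnq3 (15), a subunit of the M-current channel. Among calcium genes they were in Prkce (30), Prkca (23), Cacna1d (23) and Cacna1a (22), that is, kinases of the protein kinase C family and pore subunits of voltage-gated calcium channels. Rapgef4 (16), a cyclic AMP-activated exchange factor, led its list, and Lrfn2 (18), a synaptic adhesion protein, led the adhesion genes. Among genes that mark other cells, hosts were 2 of 6 interneuron, 4 of 10 astrocyte, 3 of 15 oligodendrocyte or OPC and 7 of 16 microglial or endothelial genes. Their member regions numbered 4, 9, 12 and 11, and 10 of the 12 in the oligodendrocyte and OPC list lay in Mbp, the gene of myelin basic protein. The shares of these lists (33.3%, 40%, 20% and 43.8%, median lengths 60.3, 95.2, 45.9 and 98.3 kb) were also above their length classes. Those were 31.1% at 50 to 100 kb and 11.8% at up to 50 kb. Per 100 kb of eligible sequence these lists held 0.566, 0.874, 1.01 and 0.933 member regions, against 1.73 over all eligible sequence.

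**Figure D3:**
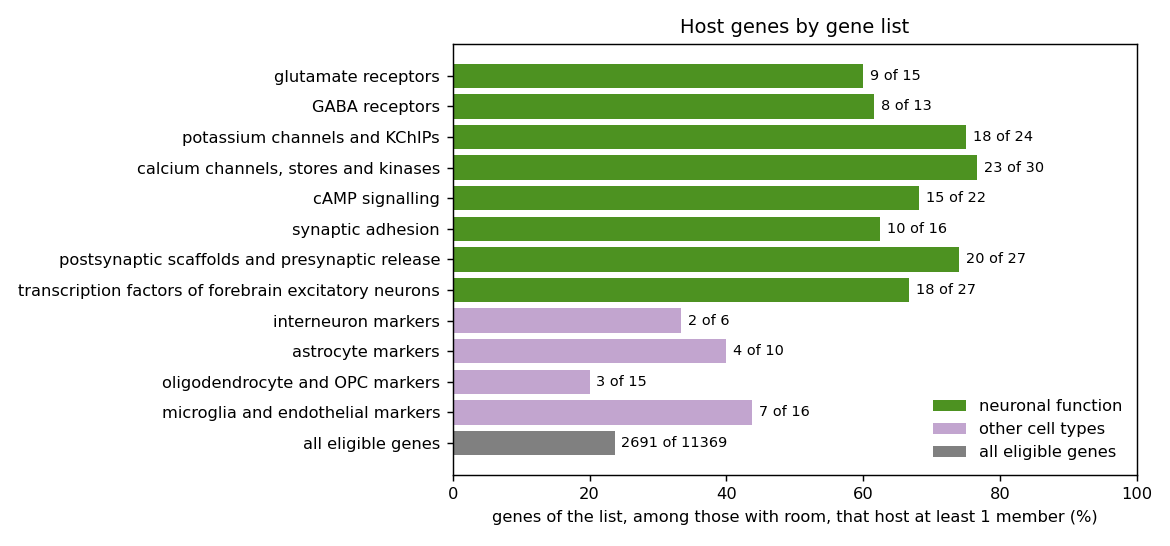
Share of genes with room for a member region that host at least 1 (horizontal axis, in percent), by gene list, with the counts beside each bar. The 8 lists of neuronal function lie between 60.0% and 76.7%, the 4 lists of other cell types between 20% and 43.8%, and all eligible genes at 23.7%.

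Whether member regions differed between Tip60 cKO and control mice was asked with limma on the rank scores of all 143941 regions. Few did by this measure. Ranks are taken within each library, so that a loss of the mark shared by all regions is not measured as such. At an adjusted p under 0.05, 1 member region was lower in Tip60 cKO mice and 3 were higher, that is 0.0111% and 0.0334% of the members, against 0.477% and 0.0868% of all regions. At an unadjusted p under 0.05 the counts were 829 lower (9.22%, against 8.33% of all regions) and 482 higher (5.36%, against 3.69%). The values of the 5 Tip60 cKO mice all lay below those of the 5 control mice in 164 member regions (1.82%, against 1.34% of all regions), and all above them in 180 (2.002%, against 0.787%). Since a member lacks a peak in 1 to 3 mice, a rank score of 0 enters each of these comparisons, and presence of a peak, which chose the members, is part of the score. Without Tip60 cKO mouse 5, 4 member regions were lower and 1 was higher, against 0.464% and 0.288% of all regions. The median difference over members, Tip60 cKO minus control, was -8.49 rank units against -2.19 over all regions, and it was -0.59 against -0.47 without mouse 5. It was -0.47 in lane 7 and -20.48 in lane 8, and it turned to 3.24 when libraries without a peak were left out of each region. With an equal number of peaks per list the median difference was -1.98. The number of calls depended on single libraries, with 0 lower and 9 to 15 higher regions when 1 control mouse was left out and 4 to 13 lower and 0 to 2 higher when 1 Tip60 cKO mouse was left out.

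The region lower in Tip60 cKO mice lay in an intron of Fam189a1 (ENSMUSG00000030518.17, chr7:65076919-65077540, 79.3 kb downstream of its TSS). Its rank scores were 50.5, 0, 47.9, 0 and 0 in Tip60 cKO mice 1 to 5 and 85.1, 83.1, 81.7, 87.5 and 88.8 in control mice 1 to 5. The means were 19.7 ± 26.95 (SD, n = 5) and 85.3 ± 2.97 (SD, n = 5). All control mice were high, and the Tip60 cKO mice either had a weaker peak or none, with no overlap between the groups. The difference was -65.58 (SE 11.9, limma adjusted p = 0.0473). It was -50.52 in lane 7 and -88.18 in lane 8, and the call was lost in 12 alternatives, with adjusted p of 0.0131 to 0.385 over all of them. The background that MACS2 estimated from the input at this region was 1.49 times as high in Tip60 cKO as in control libraries, and its part in the difference was not tested.

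The strongest increase by p was in Shank2, the gene of a postsynaptic scaffold protein (intron, chr7:144240947-144242287, 239.7 kb from the TSS). Rank scores were 77.7, 80.3, 84.5, 77.0 and 76.8 in the Tip60 cKO mice and 0, 40.2, 0, 0 and 41.9 in the control mice. All Tip60 cKO mice were above all control mice, and 3 control mice had no peak. The difference was 62.85 (SE 10.3, limma adjusted p = 0.0248), and the background from the input was 0.554 times that of control libraries. The call was lost in 10 alternatives, with adjusted p of 0.00971 to 0.418 over all of them.

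An intronic region of Zfp423, a zinc finger transcription factor (chr8:87799980-87800422, 159 kb from the TSS and 3.40 kb from an annotated transcript start), had scores of 84.4, 64.8, 73.8, 80.9 and 72.7 in Tip60 cKO mice and 0, 40.2, 0, 0 and 37.3 in control mice. The difference was 59.83 (SE 10.2, limma adjusted p = 0.0335). As in Shank2, control mice 2 and 5 were the controls with a peak, and the background ratio was 0.522. In Ralgps2, an activator of Ral GTPases (intron, chr1:156921560-156922194, 17.7 kb from the TSS), the scores were 84.4, 70.6, 87.9, 80.9 and 85.3 in Tip60 cKO mice and 42.9, 0, 0, 0 and 44.6 in control mice. The difference was 64.34 (SE 11.1, limma adjusted p = 0.0349), with a background ratio of 0.670. Zfp423 and Ralgps2 each lost the call in 11 alternatives, with adjusted p of 0.0133 to 0.418 and of 0.0139 to 0.184 over all of them. Each of these 3 regions was higher in 5 of 5 Tip60 cKO mice. The fourth by p, in Ksr2, a scaffold of the MAP kinase cascade, did not pass (difference 60.59, SE 11.4, limma adjusted p = 0.0594), although its groups did not overlap.

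The 7 regions next in order among those lower in Tip60 cKO mice did not pass either, with limma adjusted p of 0.0738 to 0.124. They lay in Tanc2, a postsynaptic scaffold gene, Arhgef28, a guanine nucleotide exchange factor, Greb1l, Rps6ka2, a kinase downstream of ERK, Rere, a transcriptional corepressor, Fggy, a carbohydrate kinase, and Pebp4. Their differences ran from -62.53 in Rps6ka2 to -58.13 in Pebp4. In each of them all 5 control mice had a peak and 3 Tip60 cKO mice, mouse 5 among them, had none. The Tanc2 region reached into an untranslated region and the Rps6ka2 region touched a coding exon, while the other 5 were intronic. The exact permutation test of each of these 12 regions alone gave p = 0.00794, the smallest that 5 against 5 mice can give. These regions were picked for their small p, so that this value adds no separate evidence. In all 8 lower regions the input background was higher in Tip60 cKO libraries (ratios 1.33 to 2.20), and in all 4 higher regions it was lower (0.522 to 0.670).

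**Figure D4:**
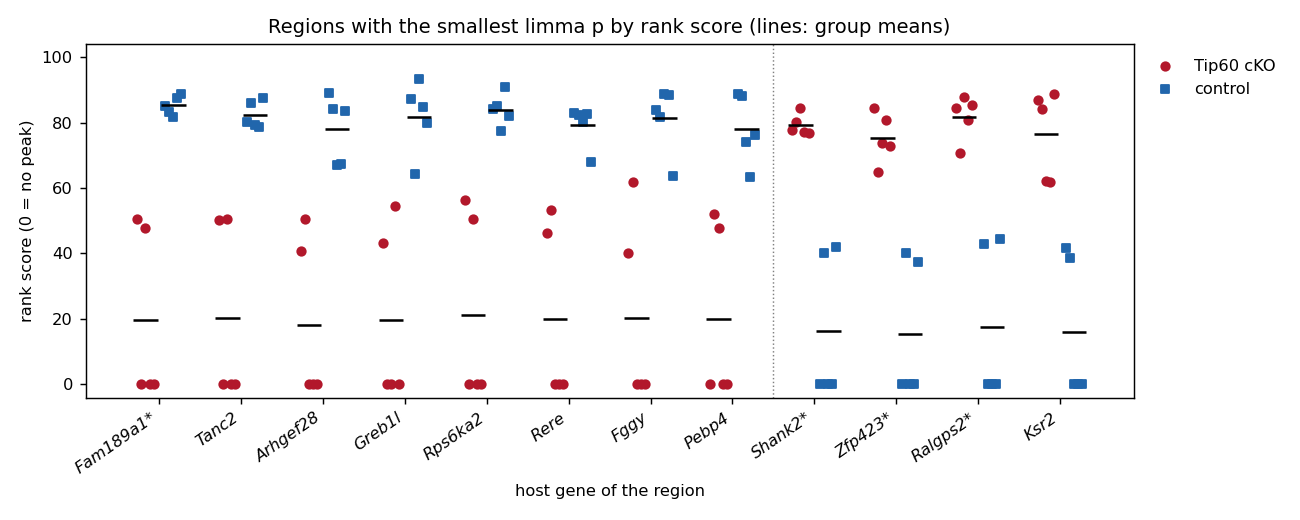
Rank score of each mouse (vertical axis, 0 for no peak, points for mice and lines for group means) in the 12 member regions with the smallest limma p, 8 lower and 4 higher in Tip60 cKO mice (asterisk, adjusted p under 0.05). The 2 groups do not overlap in any of the 12, and every group that is low contains 3 mice at 0.

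The input background is the divisor of fold enrichment, so that a region with a higher background in 1 genotype has a lower fold enrichment there at the same pileup, and the following values are a description of that link. Member regions were divided into 4 groups of like size by the ratio of the input background, Tip60 cKO over control. In the group with the lowest ratios (median 0.764) the median rank score difference was 8.67, in the next 2 groups -6.22 and -12.36, and in the group with the highest ratios (median 1.12) -21.37. The order of the 4 medians followed the ratio. In the same grouping of the 8103 member regions tested for the strength of the peaks present, the median log2 difference was 0.28, 0.13, 0.04 and -0.10 by fold enrichment. By pileup, taken relative to the library's median over regions in 10 lists, the difference ran the other way, from 0.04 to 0.09, 0.11 and 0.14. Libraries also differed by genotype in how many member peaks were scored against the genome-wide background rather than a local one, with 46.8% ± 4.94 (SD, n = 5) in Tip60 cKO and 21.8% ± 1.73 (SD, n = 5) in control libraries. As each genotype has its own pooled input, the input and the genotype cannot be told apart in fold enrichment.

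The most strongly enriched member regions showed no difference that passed. The highest mean rank score, 85.9, belonged to a region in Pdcd4, an inhibitor of translation (chr19:53903361-53904220). Its scores were 93.7, 95.7, 96.7, 98.3 and 0 in Tip60 cKO mice and 98.9, 92.6, 97.2, 91.1 and 94.4 in control mice. Only Tip60 cKO mouse 5 was low. Tbc1d14, a second Pebp4 region, Tex2 and Lifr followed with mean rank scores of 85.6, 83.5, 83.5 and 83.3 and the same pattern of a missing peak in mouse 5. In Aldh3a2, a fatty aldehyde dehydrogenase gene, with 83.1, the missing peak was in Tip60 cKO mouse 4. The limma adjusted p of the 6 ran from 0.479 to 0.715. The regions in Pdcd4, Tbc1d14 and Lifr covered the annotated start of a transcript inside the gene.

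The strongest regions of the neuronal lists likewise showed no difference that passed. The Mef2c region (mean rank score 81.6, chr13:83523331-83524758) lies in the gene of an activity-regulated transcription factor and covers the start of an internal transcript. It scored 91.7, 86.9, 91.3, 92.0 and 0 in Tip60 cKO mice and 92.8, 89.2, 91.0, 92.3 and 88.8 in control mice. Without mouse 5 the values of both groups lay within a few rank units of each other. In Gabbr2 the scores were 89.4, 94.2, 87.2, 68.5 and 0 against 96.4, 93.8, 91.6, 82.4 and 83.9. In Rapgef4 they were 81.5, 81.8, 87.9, 84.1 and 0 against 81.2, 90.9, 92.2, 84.1 and 93.2. In both genes the groups overlapped, with limma adjusted p of 0.556 and 0.544. The Gria1 region lacked a peak in Tip60 cKO mouse 4 (scores 85.5, 78.6, 79.9, 0 and 89.7, against 81.4, 93.9, 90.7, 82.2 and 81.9). In Kcnq3 it was control mouse 4 that had no peak (76.2, 89.2, 87.9, 70.4 and 85.3 against 91.1, 84.6, 85.5, 0 and 89.7). In further lists the strongest regions, in Camk1d, Ptprf, Unc13a, Mbp and Pecam1, had limma adjusted p of 0.417 to 0.957. Unc13a, a priming factor of synaptic vesicles, had the largest difference among these 5, at 27.52 (limma adjusted p = 0.417).

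Across host genes, the balance of the genotypes varied. In Rbfox3, 95.1%, 90.2%, 100%, 82.9% and 41.5% of its 41 member regions held a peak in Tip60 cKO mice 1 to 5 and 82.9%, 92.7%, 78.0%, 48.8% and 87.8% in control mice 1 to 5. The median difference in rank score over these regions was 8.34, and 11 of 41 were lower in Tip60 cKO mice, and without mouse 5 the values were 19.33 and 6 of 41. In Tiam1, a Rac exchange factor gene of dendritic spines, the shares were 93.5%, 77.4%, 80.6%, 58.1% and 35.5% against 93.5%, 100%, 87.1%, 67.7% and 96.8%. Its median difference was -16.95, with 23 of 31 lower, and it was -10.08 without mouse 5. Arid1b, a subunit of the BAF chromatin remodelling complex, was similar, with a median of -16.12 and 21 of 27 lower, and -10.59 and 19 of 27 without mouse 5. Tcf4 (0.44) and Grin2b (7.61) lay above the median of -8.49 over all members, and without mouse 5 they were at 11.56 and 14.75, against -0.59. The groups overlapped in every one of these genes, regions of a gene share their libraries, and no test was made over them.

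By gene list, the median differences ran from -16.22 to 3.63. Those for glutamate receptors (-3.24, 146 regions), GABA receptors (2.07, 67 regions), postsynaptic scaffolds and presynaptic release (3.63, 65 regions) and forebrain transcription factors (-4.04, 215 regions) were all above the -8.49 of all members. Without Tip60 cKO mouse 5 these medians became 1.02, 8.13, 12.46 and 4.10, against -0.59 over all members. The remaining neuronal lists were nearer to all members with all mice included. Adhesion genes were at -5.52, calcium genes at -5.68, potassium channels at -7.93 and cyclic AMP signalling at -8.13. Without mouse 5 they were at 0.41, 3.75, 1.48 and 1.74. The lowest with all mice was that of the 4 regions in interneuron genes (-16.22, and -4.49 without mouse 5), followed by the 12 in oligodendrocyte and OPC genes (-11.04, and -2.51) and the 11 in microglial and endothelial genes (-9.99, and -8.32, the lowest of the lists without mouse 5). The 9 regions in astrocyte genes lay above all members, at -3.83 and, without mouse 5, at 4.59. Of the 4 regions called by rank score, the Shank2 region belongs to one of the lists and the other 3 to none.

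A further question was whether peaks that were present differed in strength. Strength is not independent of the rule, because a weak peak can fall below the calling threshold and then counts as missing. In Tip60 cKO mouse 5, which had the fewest member peaks, the median strength of those present was the highest of its group, at -0.27 log2 units against -0.46 to -0.40 in Tip60 cKO mice 1 to 4. Control mouse 4, with the fewest in the control group, was likewise the highest there, at -0.44 against -0.55 to -0.50. The part of this in the differences was not tested. Strength was the log2 fold enrichment of the strongest peak relative to the median over regions in 10 lists of the same library, and 8103 member regions with a peak in at least 3 mice of each genotype were tested among 50115 regions. At a limma adjusted p under 0.05, 20 member regions (0.247%, against 0.902% of all regions) were weaker and 113 (1.39%, against 1.41%) were stronger in Tip60 cKO mice. Without Tip60 cKO mouse 5, 14 of the 20 and 73 of the 113 were called. Leaving out each library in turn gave 8 (without Tip60 cKO mouse 4) to 18 weaker and 54 (without control mouse 2) to 100 stronger regions. The median difference was 0.09 log2 units over members and 0.03 over all regions tested. The 113 stronger regions lay in 102 genes, with folds of 1.45 to 1.87 (median 1.57), and the 20 weaker ones in 19 genes, with folds of 0.579 to 0.681 (median 0.642). Libraries without a peak are left out of each value, and a change shared with the regions in 10 lists cancels out.

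The smallest p among weaker regions was in Ippk, an inositol phosphate kinase gene (intron, chr13:49444634-49445637). Its fold enrichment was 4.31, 3.59, 3.89 and 3.55 in Tip60 cKO mice 1 to 4, with no peak in mouse 5, and 6.35, 6.30, 5.67, 6.13 and 9.13 in control mice. The groups did not overlap, and relative strength was 0.605 times that of control mice (log2 difference -0.73, SE 0.159, limma adjusted p = 0.00902). Ncor1, a nuclear receptor corepressor, Tet1, a DNA demethylation enzyme, and Dpf3, a BAF complex subunit, followed with 0.621, 0.598 and 0.584 times the control strength and limma adjusted p of 0.00947 to 0.0124. The direction in Ncor1 turned when strength was taken from the pileup (log2 difference 0.012, limma adjusted p = 0.986). Tet1 and Dpf3 each lost the call in 3 alternatives, with limma adjusted p of up to 0.163 and 0.326. Ippk lost it in 1, with limma adjusted p of up to 0.303. In Tet1, fold enrichment was 2.1, 2.14, 2.34 and 3.6 in Tip60 cKO mice 1, 3, 4 and 5 and 4.25, 4.77, 4.39, 5.12 and 3.47 in control mice, so that mouse 5 overlapped the controls. The other weaker regions included 1 each in Bcl11b and Myt1l, transcription factors of the neuronal lists, and 1 in Rapgef4.

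Among stronger regions the smallest p was in Specc1 (chr11:62004756-62005825, over an untranslated exon and an annotated transcript start). Fold enrichment there was 4.30, 4.11, 4.81 and 5.13 in Tip60 cKO mice 1 to 4, with no peak in mouse 5, and 2.13, 2.40, 2.74 and 3.13 in control mice 1, 2, 3 and 5. All Tip60 cKO values were above all control values, at 1.87 times the control strength (log2 difference 0.91, SE 0.165, limma adjusted p = 0.00186). Dock9, an exchange factor for Cdc42, Map4k4, a kinase, and Hivep3, a zinc finger factor, had 1.80, 1.73 and 1.83 times the control strength, with limma adjusted p of 0.00298 to 0.0035. Genes of the neuronal lists among the stronger regions included Kcnd3 (1.79 times), which encodes an A-type potassium channel, Camk2b (1.76 times), Grin2b (1.59 times), Tcf4 (1.49 times), Gabbr2, with 2 regions (1.56 and 1.62 times), and Myt1l, also with 2 (1.47 and 1.61 times). The Tcf4 region was not called without Tip60 cKO mouse 5 (limma adjusted p = 0.0887). By pileup none of the 8 regions with the smallest p nor of the neuronal list regions named here passed.

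The calls by fold enrichment were also set beside its divisor, the input background, which they are not independent of. It was lower in Tip60 cKO than in control libraries at 112 of the 113 stronger regions (median ratio 0.653) and higher at all 20 weaker ones (median ratio 1.38), against a median of 0.937 over the member regions tested. Strength was also taken from the pileup, relative to its median over regions in 10 lists of the library, without dividing by the input. By this measure limma called 0 member regions weaker (against 0.00599% of all regions) and 6 stronger (0.0740%, against 0.0698%). At an unadjusted p under 0.05 these counts were 89 (1.10%, against 3.18%) and 798 (9.85%, against 7.36%). The median difference by pileup was 0.09 log2 units, as by fold enrichment. In the sign of the pileup difference, 108 of the 113 stronger and 18 of the 20 weaker regions were on the same side. Pileup is the numerator of fold enrichment, for which these regions were called, so that this count adds no separate evidence. Over all member regions tested, the first quartile of the pileup difference was -0.03 log2 units.

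Of the 6 regions called by pileup, 5 lay in Camk2a, the gene whose promoter drives the Cre transgene. In the first of them (chr18:60978573-60979560) the pileup was 41, 38, 41 and 24 fragments in Tip60 cKO mice 1, 2, 3 and 5 and 14, 21 and 12 in control mice 1, 3 and 4. The input background there was 2.26 times as high in Tip60 cKO libraries, fold enrichment was 4.03 on average in Tip60 cKO and 3.598 in control mice, and its difference did not pass (log2 difference 0.27, limma adjusted p = 0.460). The other 4 Camk2a regions had background ratios of 1.52 to 1.96. The sixth region lay in Akap6, which encodes an anchoring protein of protein kinase A (chr12:52926670-52929742). Its pileup was 29, 23, 28, 31 and 17 in Tip60 cKO mice 1 to 5 and 17, 14, 13 and 21 in control mice 2 to 5, a relative strength of 1.86 times that of controls (limma adjusted p = 0.000226). Its fold enrichment also differed (log2 difference 0.61, limma adjusted p = 0.0271), with a background ratio of 1.14. Of the 6, the Akap6 region was the one that passed by both measures of strength.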

How the data were processed

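H4K12ac chromatin immunoprecipitation libraries from 10 mice were used as the peak lists that the authors deposited. The 2 pooled input libraries were not analysed here. Per the methods and file headers, the authors aligned reads to mm10, removed duplicates with SAMtools and called peaks with MACS2 2.1.0.20140616 at a q-value under 0.1 against the input of the same genotype. Each deposited list gives, per peak, the signal (pileup of fragments at the summit), the ratio to background (fold enrichment), and the −log10 of the p-value and of the q-value. The background that MACS2 took from the input was recovered as (pileup + 1) divided by fold enrichment, minus 1, and divided by the genome-wide expectation of the library. Genotypes were compared by the ratio of its means over libraries with a peak. Depth was read as tags after filtering in the file headers, and such tags do not give counts per region, so no count model was used and no interval for counting error was given.

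Peaks sharing at least 1 base were merged, and gene models came from GENCODE release 21 (GRCm38). A gene's TSS was the 5′ end of its whole annotated model. Rank scores and strengths were tested across all regions with limma 3.58.1 (R 4.3.3, Benjamini-Hochberg adjustment, two-sided, all 5 mice against 5), and single regions by an exact two-sided permutation test over 252 splits. The limma script was tested on simulated data. Sequences were read with pysam 0.24.0 in Python 3.11.15.

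The regions named were the 8 lower and 4 higher with the smallest p by rank score, the 6 with the highest mean rank score, the 8 genes with most regions, the highest ranked region per gene list, and the 4 with the smallest p by strength in each direction. Some regions that these rules pick are not reported here. Regions called by pileup, other host genes and other genes called by strength were named after their values were seen. The member regions and gene lists were chosen with earlier results of these data known. Alternatives changed the q threshold, number of peaks, overlap, TSS definition and distance, ranking by pileup, missing peaks, the prior, lane, replicate block and each library in turn. The labels do not pair mice across genotypes, and where nothing states separate cultures or litters, p-values measure the spread between these mice.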

Additional observations from a re-analysis of the deposited data

Results flagged for a closer look

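In groups of 5 mice, a value was singled out when its gap to the nearest other mouse exceeded 0.71 of the range of its group. This was so for 24 values in 80 groups examined, and chance flags about 1 in 20 groups. Many of these groups are not independent of the choice of members, since every member lacks a peak in 1 to 3 mice.

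Over all member regions, Tip60 cKO mouse 5 had the lowest share with a peak of its group (38.7%) and the lowest median pileup (13 fragments), and the peaks it did have had the highest median rank score (81.4). Control mouse 4 had the highest median rank score of the control group (73.8).

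Tip60 cKO mouse 5 had a rank score of 0, for no peak, in the named regions of Pdcd4, Tbc1d14, Pebp4, Tex2, Lifr, Gabbr2, Camk1d, Rapgef4 and Mef2c. In 7 further regions another library stood alone at 0, namely Tip60 cKO mouse 4 in Aldh3a2 and Gria1, Tip60 cKO mouse 3 in Ptprf, Mbp and Pecam1, and control mouse 4 in Kcnq3 and Unc13a. Control mouse 5 was the lowest of its group in Rere (67.9), Fggy (63.6) and Ptprf (50.3).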

How the results depend on the processing

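Of the limma calls by rank score (1 lower, 3 higher), none were left when peaks were ranked by pileup (0 and 0, with 570 and 269 at an unadjusted p under 0.05), when libraries without a peak were left out (0 and 0, unadjusted 393 and 1011), with equal numbers of peaks per list (0 and 0, unadjusted 371 and 372) or with the replicate number as a block (0 and 0, unadjusted 751 and 446). With lane in the model they were 0 and 1 (unadjusted 892 and 468), with q under 0.01 they were 0 and 3 (unadjusted 775 and 456), and with a robust mean-dependent prior 22 and 7. Leaving out 1 library gave 0 to 13 lower and 0 to 15 higher. By peak strength (20 and 113), pileup gave 0 and 6, leaving out 1 library gave 8 to 18 and 54 to 100, and the block gave 16 and 112. Same-numbered mice did not deviate together (correlations -0.0107 to 0.0225), so the numbers are not taken as pairs. The median rank difference of -8.49 turned to 3.24 with libraries without a peak left out and was -1.98 with equal numbers of peaks per list. It was -20.48 in lane 8 alone, and it ran from -11.14 to -0.59 with 1 library left out. The causes of these changes were not tested. The number of member regions fell from 8991 to 4519 with equal numbers of peaks, 2616 when peaks had to cover at least 50% of the region and 5576 with every transcript start counted, and the intronic share was then 70.2% in the first and 85.1% in the last of these. The Ncor1 strength difference turned to 0.012 by pileup (limma adjusted p = 0.986, range over alternatives 0.00947 to 0.986). Tip60 cKO mouse 5 had the fewest tags, the part of depth in its missing peaks was not tested, and a missing peak is not shown to be an absent mark.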
